A study of Rattus norvegicus with 12 samples.

Results

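Proteobacteria are a phylum of Gram-negative bacteria, and their members were followed here through rat faeces from 4 groups of libraries. Members were all amplicon sequence variants (ASVs, exact 16S rRNA gene sequences inferred from the reads) whose lineage names the phylum. There were 209 such ASVs of 7238 in all, in 72 of 385 genus-level features and 45 of 193 family-level features. Together they held 63482 reads, or 1.37% of all reads. The study asked whether gut bacteria differ among rats with sham surgery (Sham), rats with experimental subarachnoid haemorrhage (SAH), such rats given tetrandrine, a calcium channel blocker from a plant (SAH+Tet), and such rats given tetrandrine and ABX, a common short form for antibiotics (SAH+Tet+ABX). SAH+Tet and SAH+Tet+ABX thus both carry the haemorrhage, and SAH+Tet+ABX also carries tetrandrine. Each group had 3 libraries. The sources used here do not give strain, age, doses, times or the antibiotics. Nor do they state that every library is from its own animal, so p-values measure only the spread between these libraries.

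In a healthy gut, Proteobacteria are a minor phylum beside the strict anaerobes of Firmicutes and Bacteroidota. Many can use oxygen or nitrate, and Enterobacteriaceae such as Escherichia are known to expand when the gut is inflamed or when antibiotics remove competitors. Parasutterella, of the Sutterellaceae, is an exception: it is a strict anaerobe that does not ferment sugars and is a regular resident of the rodent gut. Rodentibacter, of the Pasteurellaceae, lives on rodent mucosa. Pseudomonas and the Rhizobiaceae are aerobes of soil, water and plant roots, and both are also known from laboratory reagents.

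Library totals ranged from 211450 to 531426 reads. SAH 1, SAH+Tet 3 and all 3 libraries of SAH+Tet+ABX lay below 300000 reads, and the other 7 above. The same 4 libraries of SAH and SAH+Tet that lay above this depth (SAH 2, SAH 3, SAH+Tet 1 and SAH+Tet 2) also held 11.1% to 16.7% of reads in 6 Gram-positive genera that grow in air, as aerobes or as facultative or aerotolerant anaerobes (Corynebacterium, Aerococcus, Jeotgalicoccus, Staphylococcus, Enterococcus and Weissella), against 0.0115% to 0.0632% in the other 8 libraries. They are called the Corynebacterium-rich libraries here, after the first of these genera. Where a member had 0 reads, a bound of 3 reads was set on its share. This bound is 0.000565% in the deepest library and 0.00142% in the shallowest. It covers counting error only, since PCR copies are not independent molecules.

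The phylum as a whole held a share of reads of 1.21%, 1.24% and 1.41% in Sham 1 to 3, and 1.07%, 1.61% and 1.62% in SAH 1 to 3. SAH+Tet libraries held 1.23%, 1.26% and 1.18%, and SAH+Tet+ABX libraries 1.33%, 1.88% and 1.41%. Sham and SAH overlapped each other and SAH+Tet, while all SAH+Tet+ABX libraries lay above all SAH+Tet libraries, and the highest value was that of SAH+Tet+ABX 2. These phylum shares were not tested. Group means were 1.29% ± 0.105 (SD, n = 3 throughout), 1.43% ± 0.313, 1.22% ± 0.0417 and 1.54% ± 0.300. Within the phylum, 5 genus-level features held 94.2% of the reads: Pseudomonas, Parasutterella, Rhodospirillales without a family name, Escherichia-Shigella and Rhizobiaceae without a genus name.

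**Figure D1:**
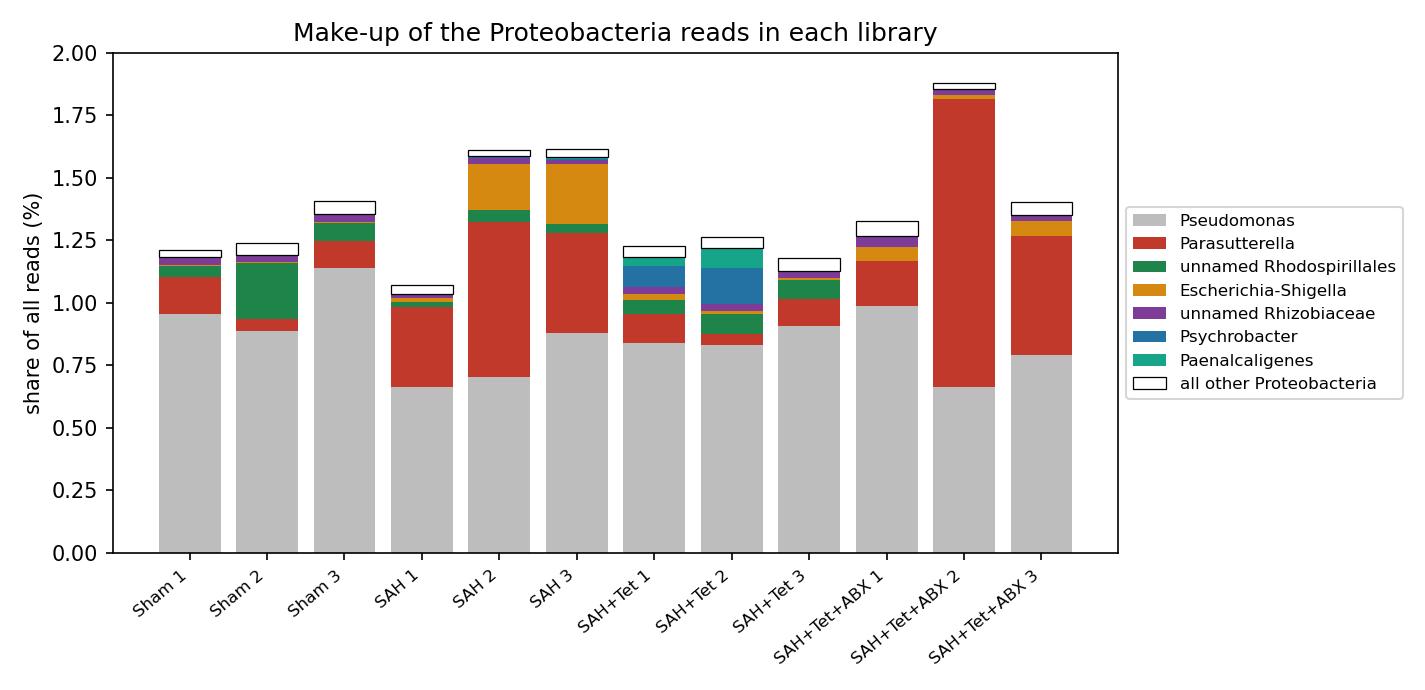
Stacked bars show, for each of the 12 libraries, the share of all reads (%, linear axis from 0) held by 7 genus-level features of the Proteobacteria and by all their other members. The Pseudomonas segment stays between 0.663% and 1.14% in every library, while the Parasutterella segment ranges from 0.0437% in SAH+Tet 2 to 1.15% in SAH+Tet+ABX 2.

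Pseudomonas was the largest member in every library but SAH+Tet+ABX 2. Its share was the least variable among the 155 genera with a mean share of at least 0.01%. It held 0.956%, 0.887% and 1.14% of reads in Sham 1 to 3, and 0.663%, 0.704% and 0.881% in SAH 1 to 3. In SAH+Tet it held 0.840%, 0.832% and 0.909%, and in SAH+Tet+ABX 0.988%, 0.666% and 0.791%. SAH libraries lay below the Sham libraries, although SAH 3 and Sham 2 differed by little, and the other groups overlapped both. The 95% Wilson interval of a single library, which covers counting error only, was 0.634% to 0.699% for SAH+Tet+ABX 2, the library with the fewest Pseudomonas reads. Over the 12 libraries the coefficient of variation (SD over mean) was 16.3%, rank 1 from the lowest among 155 genera with a mean share of at least 0.01%. Its highest library share was 1.72 times its lowest. The even shares of Pseudomonas and the Rhizobiaceae were known when these were chosen, so their ranks are a description and not a test.

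This share came almost wholly from 1 sequence. Of 13 Pseudomonas ASVs, the most abundant held 99.5% of the genus reads and was found in every library. In SAH+Tet 3, Sham 3 and the 3 SAH+Tet+ABX libraries it was the only Pseudomonas ASV. The second ASV had 31, 29, 5 and 23 reads in SAH 2, SAH 3, SAH+Tet 1 and SAH+Tet 2, and 0 reads in the other 8 libraries. ASV 3 and ASV 4, with 34 and 30 reads, were found in SAH+Tet 2 alone. The minor Pseudomonas ASVs with at least 20 reads were thus seen in Corynebacterium-rich libraries only.

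The Rhizobiaceae, root-associated soil bacteria, were the next most even members. As a family they held 0.0423%, 0.0387% and 0.0477% of reads in Sham 1 to 3, and 0.0298%, 0.0271% and 0.0281% in SAH 1 to 3. SAH+Tet libraries held 0.0389%, 0.0402% and 0.0427%, and SAH+Tet+ABX libraries 0.0586%, 0.0380% and 0.0347%. All SAH libraries lay below all libraries of the other groups. The coefficient of variation was 22.6% for the family. It was 26.9% for Rhizobiaceae without a genus name (rank 5 of 155) and 21.6% for the Allorhizobium-Neorhizobium-Pararhizobium-Rhizobium group (rank 3 of 155). Rank 2 was taken by Rhodococcus, a soil actinobacterium outside the phylum.

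Rhizobiaceae reads were also set against Pseudomonas reads within each library. Shares that are each even give an even ratio, so the ratio does not show that they moved together. Whether they did was not tested. For every 100 Pseudomonas reads there were between 3.19 and 5.94 Rhizobiaceae reads, with a median of 4.46 over the 12 libraries. The group means of this ratio were 4.33 ± 0.124 for Sham, 3.84 ± 0.657 for SAH, 4.72 ± 0.108 for SAH+Tet and 5.34 ± 0.837 for SAH+Tet+ABX. Brevundimonas, an aquatic genus of the Caulobacteraceae, had only 4 to 15 reads per library but was found in all 12, at 0.158 to 0.479 reads per 100 Pseudomonas reads. The group means of the Brevundimonas ratio were 0.177 ± 0.0232 for Sham, 0.270 ± 0.0988 for SAH, 0.327 ± 0.0435 for SAH+Tet and 0.352 ± 0.114 for SAH+Tet+ABX. Every Sham library lay below every SAH+Tet and SAH+Tet+ABX library, and this was not tested. Wider ranges were those of Parasutterella, from 5.26 to 172.7 reads per 100 Pseudomonas reads, and Escherichia-Shigella, from 0.135 to 27.0. No blank extraction was used here, and the source of the Pseudomonas and Rhizobiaceae reads was not tested.

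Another way to state this evenness is the variance over the 12 libraries divided by what counting error alone would give. It was 1.36 for Brevundimonas, 2.30 for the Allorhizobium group, 6.71 for the Rhizobiaceae family and 86.2 for Pseudomonas. The gut residents gave 1179 for Parasutterella and 489.2 for Escherichia-Shigella, but 10.4 for Rodentibacter. The value grows with read number, so it does not rank genera of unequal abundance.

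**Figure D2:**
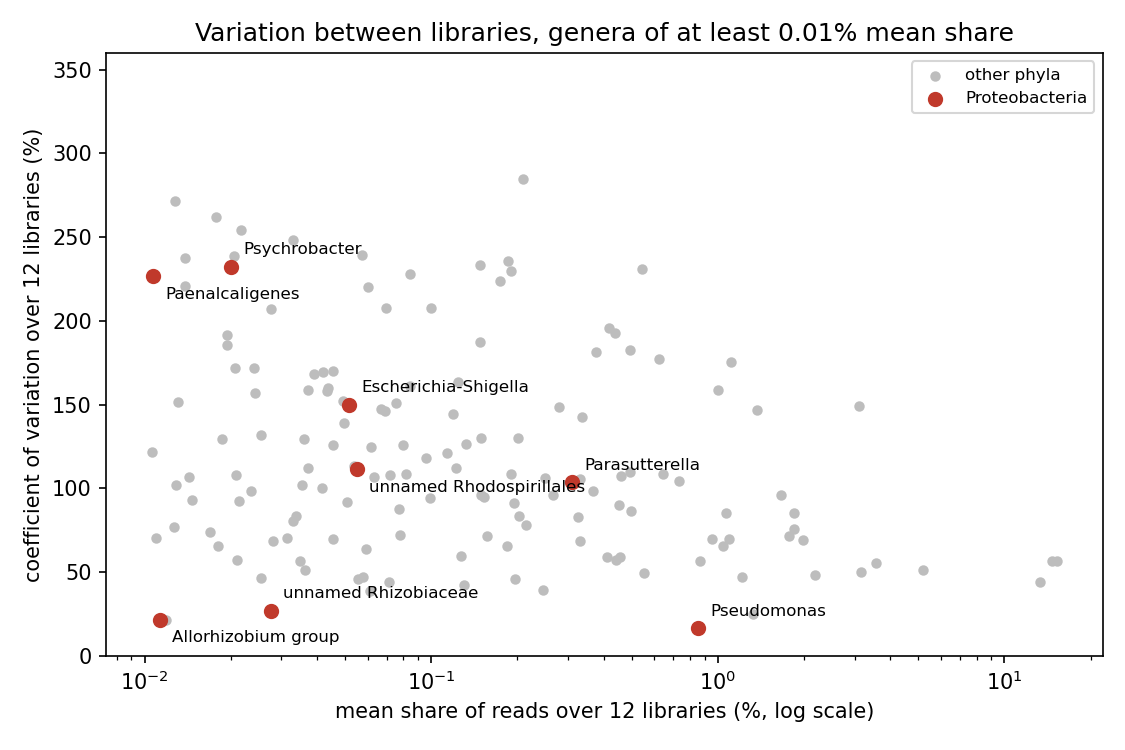
Each point is 1 of 155 genera with a mean share of at least 0.01%, with the mean share over 12 libraries on a log axis and the coefficient of variation (%) on a linear axis; red points are Proteobacteria and grey points other phyla. Pseudomonas (16.3%) and the Rhizobiaceae features (21.6% and 26.9%) lie at the bottom, while Parasutterella (103.7%) and Escherichia-Shigella (150%) lie among the other genera and Psychrobacter (232.2%) near the top.

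Other environmental genera on the list were rare or limited to a few libraries. Acinetobacter, of soil and water, had 45 reads in 7 libraries, Sphingomonas 14 reads in 3, and Ralstonia and Stenotrophomonas 2 reads each in 1. The list also named genera with no read in any library, namely Bradyrhizobium, Methylobacterium-Methylorubrum, Burkholderia-Caballeronia-Paraburkholderia, Delftia, Achromobacter, Caulobacter, Comamonas and Undibacterium. Psychrobacter, which was on the same list, followed a different course and is described with the Corynebacterium-rich libraries.

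Among the gut residents, Parasutterella was high in SAH and SAH+Tet+ABX and low in Sham and SAH+Tet. It held 0.147%, 0.0477% and 0.111% of reads in Sham 1 to 3, and 0.321%, 0.620% and 0.398% in SAH 1 to 3. SAH+Tet libraries held 0.118%, 0.0437% and 0.108%, and SAH+Tet+ABX libraries 0.181%, 1.15% and 0.475%. No SAH or SAH+Tet+ABX library overlapped a Sham or SAH+Tet library. SAH 1, which is not Corynebacterium-rich, lay with the other SAH libraries. As a share of the phylum's own reads, Parasutterella took 7.96% ± 4.15 among Sham, 31.0% ± 6.97 among SAH, 7.40% ± 3.41 among SAH+Tet and 36.2% ± 23.8 among SAH+Tet+ABX libraries.

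The 2 groups with high Parasutterella carried different mixtures of its 24 ASVs. ASV 1, numbered by total reads, was the largest part in most libraries: 49.9% ± 4.95 of the genus reads for Sham, 50.8% ± 0.504 for SAH, 62.8% ± 4.97 for SAH+Tet and 48.0% ± 6.37 for SAH+Tet+ABX. Every SAH+Tet library (57.1% to 66.3%) lay above all 9 others (43.8% to 55.4%). ASV 2 made up 35.4% ± 11.0 for Sham, 11.4% ± 11.4 for SAH, 24.0% ± 7.23 for SAH+Tet and 46.1% ± 5.23 for SAH+Tet+ABX. It was lowest in SAH 2 (5.49%) and SAH 3 (4.15%), and took 24.5% in SAH 1.

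ASV 3 had 788 and 558 reads in SAH 2 and SAH 3, 78 and 30 in SAH+Tet 1 and SAH+Tet 2, and 0 reads in all other libraries, so it was limited to the Corynebacterium-rich libraries. ASV 4, whose species label is Burkholderiales bacterium, had 82, 150 and 112 reads in SAH 1 to 3, and 0 reads in every SAH+Tet+ABX library. ASV 4 also made up 11.3% and 6.42% of the genus reads in Sham 2 and Sham 3, and 7.08% and 2.04% in SAH+Tet 2 and SAH+Tet 3. It had 0 reads in Sham 1 and SAH+Tet 1. ASV 5 had 11, 83 and 134 reads in SAH+Tet+ABX 1 to 3 and at most 9 in any other library. The number of Parasutterella ASVs seen was 7, 6 and 5 in Sham, 8, 13 and 7 in SAH, 4 in each SAH+Tet library and 3, 4 and 3 in SAH+Tet+ABX. These differences between ASVs were not tested, and the number seen also depends on depth.

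**Figure D3:**
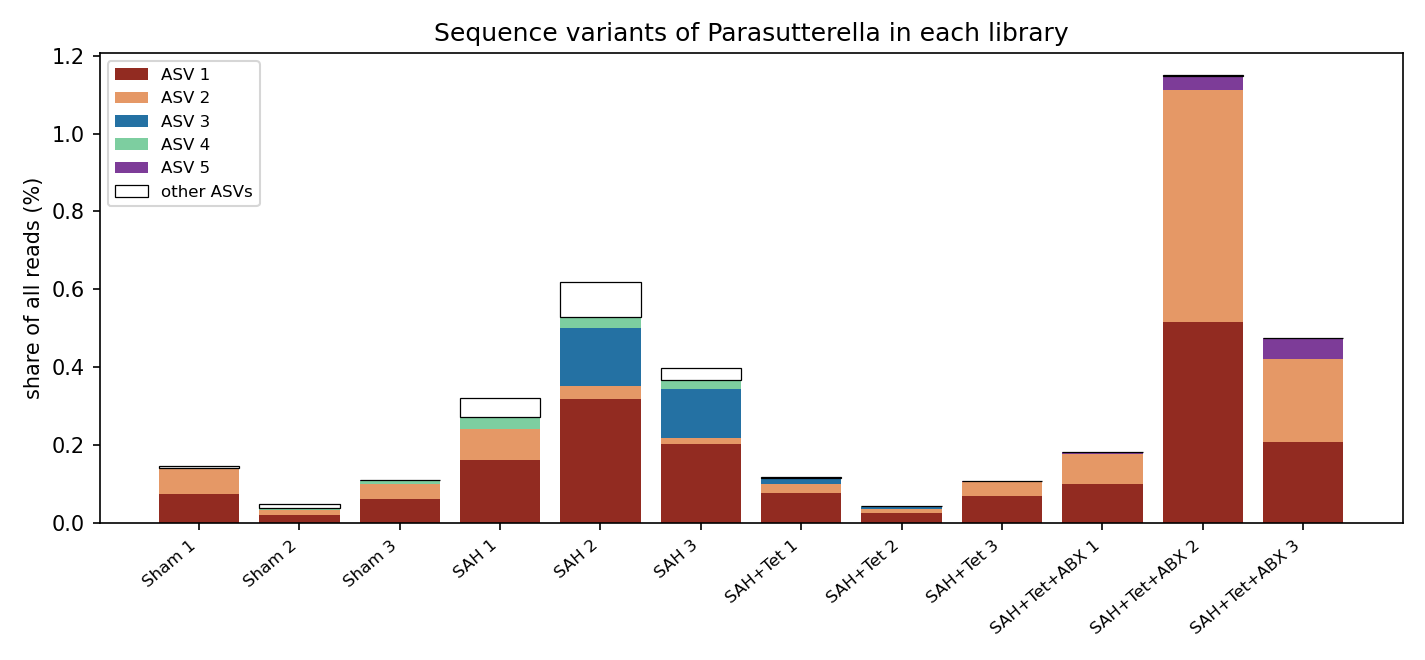
Stacked bars give the share of all reads (%, linear axis from 0) held by the 5 most abundant Parasutterella ASVs and by all its other ASVs in each library. The tall bars of SAH 2 and SAH 3 contain ASV 3 and little ASV 2, while in SAH+Tet+ABX 2 and 3 ASV 1 and ASV 2 are of similar height and ASV 3 has 0 reads.

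Escherichia-Shigella, facultative anaerobes that include commensals and pathogens, showed the widest range among the members found in all 12 libraries. It held 0.00423%, 0.00421% and 0.00154% in Sham 1 to 3 and 0.0129%, 0.183% and 0.238% in SAH 1 to 3. SAH+Tet libraries held 0.0218%, 0.0151% and 0.00792%, and SAH+Tet+ABX libraries 0.0553%, 0.0154% and 0.0604%. Every library of the other groups lay above every Sham library. SAH 1 lay within the SAH+Tet range, so the high SAH mean came from the Corynebacterium-rich SAH 2 and SAH 3, while the Corynebacterium-rich SAH+Tet 1 and SAH+Tet 2 did not reach their level. ASV 1 held 91.9% of the genus reads. It had 0 reads in Sham 1, whose 21 reads belonged to ASV 3, and ASV 3 was found in no other library. ASV 2 had 50 and 121 reads in SAH 2 and SAH 3 and 0 reads elsewhere.

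Rodentibacter was low and did not separate the groups. It had 14, 53 and 39 reads in Sham 1 to 3 and 25, 21 and 36 in SAH 1 to 3. SAH+Tet libraries had 27, 20 and 27 reads, and SAH+Tet+ABX libraries 31, 0 and 42. The shares were 0.00699% ± 0.00393, 0.00735% ± 0.00311, 0.00721% ± 0.00416 and 0.0106% ± 0.00927, and the groups overlapped. The 0 of SAH+Tet+ABX 2 allows up to 0.00128%, below the share of every other library. Among the remaining residents on the list, Actinobacillus (7 reads in Sham 2) and Morganella (5 reads in SAH 3) were found in 1 library each. Sutterella, Klebsiella, Enterobacter, Citrobacter, Providencia, Muribacter, Haemophilus, Aggregatibacter and Pasteurella had no read under those names.

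Rhodospirillales without a family name, an alphaproteobacterial order with members known from the gut only through sequences, were present in all 9 libraries without ABX and in 0 of 3 with it. They held 0.0430%, 0.226% and 0.0719% in Sham 1 to 3, and 0.0222%, 0.0495% and 0.0383% in SAH 1 to 3. SAH+Tet libraries held 0.0559%, 0.0786% and 0.0739%, and the 3 SAH+Tet+ABX libraries had 0 reads. All SAH libraries lay below all SAH+Tet libraries. Sham overlapped both groups, although SAH 1 and SAH 3 lay below every Sham library. The 3034 reads were spread over 25 ASVs, of which the most abundant held 19.7%, and 0 ASVs were found in every library. ASV 1 held 62.8% of these reads in Sham 3 but 0.976% in Sham 2, where ASV 3 and ASV 4 held 27.7% and 27.3%. The high share of Sham 2 thus came from other sequences than those of Sham 3.

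**Figure D4:**
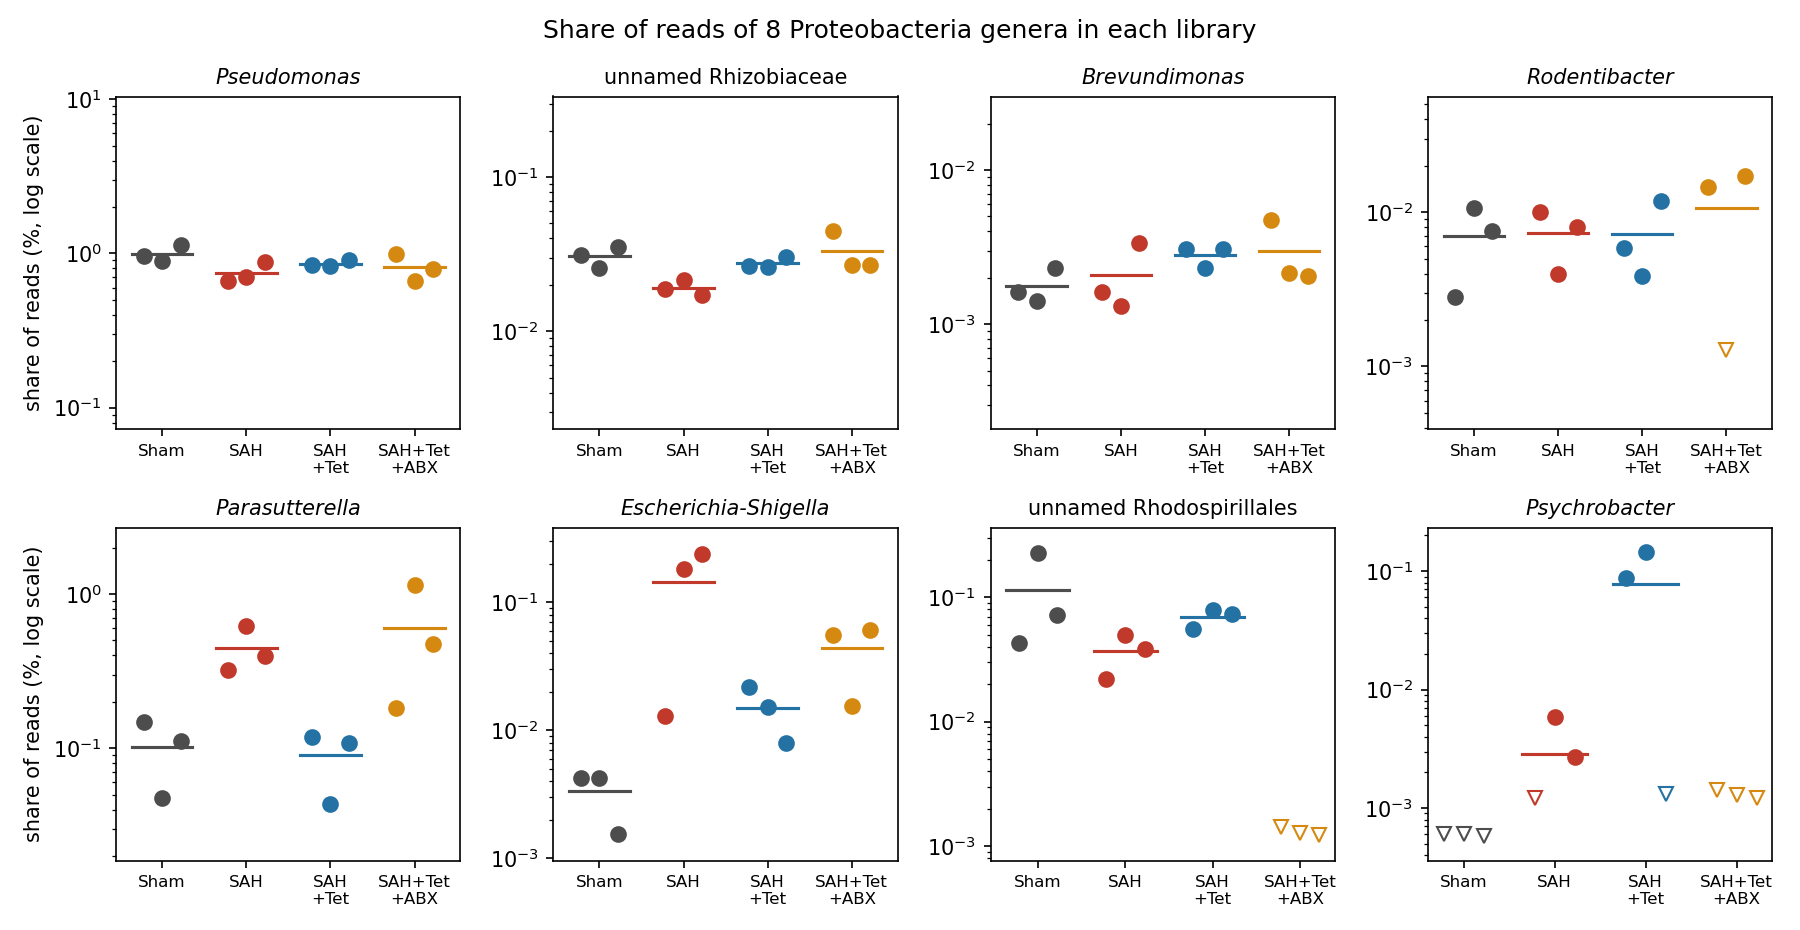
Each panel gives 1 genus-level feature, with its share of reads (%) on a log axis and the 4 groups side by side. Filled circles are single libraries, open triangles are libraries with 0 reads drawn at the share that 3 reads would give, and lines are group means. Pseudomonas and Rhizobiaceae without a genus name span a narrow range on this axis, although their SAH libraries lie below all Sham libraries. Parasutterella is higher in SAH and SAH+Tet+ABX, and Rhodospirillales have 0 reads in SAH+Tet+ABX.

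Psychrobacter, Paenalcaligenes and Proteus were found in the 4 Corynebacterium-rich libraries and in no other. Psychrobacter, salt- and cold-tolerant aerobes of the Moraxellaceae, had 31 and 12 reads in SAH 2 and SAH 3 and 398 and 750 in SAH+Tet 1 and SAH+Tet 2. Paenalcaligenes, of the Alcaligenaceae, had 29, 35, 154 and 420 reads in the same libraries. Proteus, swarming urease-positive relatives of Escherichia, had 20, 11, 47 and 52. All 3 had higher shares in both Corynebacterium-rich SAH+Tet libraries than in both Corynebacterium-rich SAH libraries, whereas Escherichia-Shigella had the opposite order. With SAH 1 and SAH+Tet 3 at 0 reads, the SD was about as large as the mean: Psychrobacter held 0.00284% ± 0.00292 in SAH and 0.0773% ± 0.0730 in SAH+Tet. Of the 55 Proteobacteria ASVs with at least 20 reads, 17 (30.9%) were limited to the Corynebacterium-rich libraries, as were 773 of 4365 ASVs (17.7%) of all bacteria and archaea. These 4 libraries are also the deeper ones of their groups, and the part of depth was not tested.

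SAH was compared with Sham for the haemorrhage model. Genus counts were tested with edgeR's quasi-likelihood test with Benjamini-Hochberg adjustment over all genera tested, at a threshold of 0.05, and 13 members passed the filter, which asks for 10 reads or more in 3 or more of the libraries fitted. No member was called, and over all 188 genera 0 (0%) were called. At an unadjusted p below 0.05 there were 4 members and 55 genera in all. DESeq2 called 2 members higher, where over all genera it called 30 higher and 18 lower. Limma on centred log-ratio values called 1 member higher, and over all genera 4 higher and 5 lower. The median log2 fold change was 0.46 over the 13 members and 0.22 over all genera tested.

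Escherichia-Shigella had the largest difference of the members with reads in both groups, 5.66 ± 1.17 on the log2 scale (± SE, edgeR adjusted p = 0.0861). The edgeR adjusted p was 0.0285 without SAH 1 and 0.00306 with depth class as a block. Over 18 alternatives the adjusted p ran from 3.81e-07, in DESeq2, to 0.269, and 4 of them made the call. For Parasutterella the log2 fold change was 2.45 ± 0.64 (edgeR adjusted p = 0.135, and 0.0428 with depth class as a block). Over 18 alternatives its adjusted p ran from 0.00255, in DESeq2, to 0.269, and 2 of them made the call. Both genera were higher in every SAH library than in every Sham library. They were the 2 members of 13 with higher, non-overlapping groups, where 12.2% of all genera had such groups. There were 3 members lower without overlap, where 22.9% of all genera were: Pseudomonas, Rhizobiaceae without a genus name and the Allorhizobium group. Their log2 fold changes were -0.07 ± 0.32, -0.32 ± 0.41 and -0.08 ± 0.46. These are smaller than their shares show, because the scaling shifts all genera: with library-size scaling the median log2 fold change of all genera was -0.05 in place of 0.22.

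With depth class as a block, 5 members rose in SAH against Sham in edgeR: Escherichia-Shigella, Parasutterella, Psychrobacter (adjusted p = 0.0186), Paenalcaligenes (0.0138) and Proteus (0.0232). Over all genera, 13.8% rose in that fit. Psychrobacter, Paenalcaligenes and Proteus passed the filter only through the Corynebacterium-rich libraries, where they are high. Their 3 calls are therefore no separate support for a rise, and the count of 5 is not a result about the phylum. In it only SAH 1 and SAH+Tet 3 belong to the lower depth class, so the depth term absorbs what sets these libraries apart within their groups. Psychrobacter, Paenalcaligenes and Proteus had 0 reads in Sham, and their SAH means were at least 4.77-fold, 7.43-fold and 3.48-fold higher than 3 reads per Sham library would give. Without the block, the edgeR adjusted p of these 3 genera was 0.186, 0.164 and 0.150. For each, 1 of 16 alternatives made the call, namely the depth block. SAH 1 had 0 reads of all 3. The Rhodospirillales differed by -1.25 ± 0.69 (edgeR adjusted p = 0.278 without the block), and Rodentibacter by 0.46 ± 0.65 (0.663).

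SAH+Tet was compared with SAH for tetrandrine in the haemorrhage model. Again no member of 13 and 0 of 188 genera (0%) were called by edgeR, with 2 members and 37 genera at an unadjusted p below 0.05. DESeq2 called 2 members lower, where over all genera it called 9 higher and 21 lower. Limma on centred log-ratio values called 0 members, and over all genera 0 higher and 1 lower. The comparison shares the SAH libraries with the one above, so values of opposite sign in the 2 comparisons are not independent. Parasutterella differed by -2.69 ± 0.65 (edgeR adjusted p = 0.107) and was lower in every SAH+Tet library than in every SAH library. Over 18 alternatives its adjusted p ran from 0.00139, in DESeq2, to 0.349, and 1 of them made the call. Parasutterella was the 1 member lower without overlap, where 10.6% of all genera were. Escherichia-Shigella differed by -3.43 ± 1.05 (edgeR adjusted p = 0.177), but SAH 1 lay within the SAH+Tet range. Over 18 alternatives its adjusted p ran from 0.00336, in DESeq2, to 0.370, and 1 of them made the call.

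A further 3 members were higher without overlap in SAH+Tet, where 12.8% of all genera were: the Allorhizobium group, Rhizobiaceae without a genus name and the Rhodospirillales. Their log2 fold changes were 0.24 ± 0.46, 0.21 ± 0.41 and 0.65 ± 0.68, and none passed in edgeR. Psychrobacter differed by 4.62 ± 2.40 (edgeR adjusted p = 0.324), with 0 reads in 1 library of each group. The median was 0.24 over the members and 0.09 over all genera tested.

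SAH+Tet+ABX was compared with SAH+Tet for antibiotics added to tetrandrine, in an edgeR fit of all 12 libraries. Of 13 members, 3 were called (1 rose, 2 fell), where 73 of 196 genera (37.2%) were called, 18 higher and 55 lower. Their median log2 fold change was 0.02, against -1.65 over all genera tested, and 6 of the 13 were below 0. The Rhodospirillales fell to 0 reads, at least 53.1-fold lower than in SAH+Tet if each SAH+Tet+ABX library had 3 reads (edgeR adjusted p = 0.000695). This call was made under all 21 alternatives, with adjusted p up to 0.00750.

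Parasutterella rose by 2.89 ± 0.88 on the log2 scale (edgeR adjusted p = 0.0282) and was higher in every SAH+Tet+ABX library. Its call was lost with depth class as a block (0.0896), with the replicate block (0.0827), on the 6 libraries alone (0.0521), without a filter (0.0568), and without SAH+Tet 1 (0.0686), SAH+Tet 2 (0.0859) or SAH+Tet+ABX 2 (0.0909). Over 21 alternatives its edgeR, DESeq2 and limma adjusted p ran from 0.000116 to 0.0909, and 14 of them made the call. It was the 1 member higher without overlap, where 9.69% of all genera were, and the Rhodospirillales were the 1 member lower without overlap, where 32.1% were.

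Psychrobacter fell from 0.0773% ± 0.0730 in SAH+Tet to 0 reads, at least 59.1-fold (edgeR adjusted p = 0.0461). It passed the filter only through the Corynebacterium-rich libraries of SAH and SAH+Tet. SAH+Tet 3, the only SAH+Tet library in the depth class of SAH+Tet+ABX, also had 0 reads, and with depth class as a block the adjusted p was 1. The call was made under 8 of 19 alternatives and was lost without SAH+Tet 1 (0.0851), SAH+Tet 2 (0.0943), any SAH+Tet+ABX library (0.0842 to 0.0998), Sham 3 (0.0514), SAH 2 (0.0621) or SAH 3 (0.0706). Paenalcaligenes (edgeR adjusted p = 0.0562) and Proteus (0.0743) had 0 reads in SAH+Tet+ABX and did not pass. Escherichia-Shigella differed by 1.70 ± 0.99 (edgeR adjusted p = 0.182), with SAH+Tet+ABX 2 inside the SAH+Tet range. Over 21 alternatives its adjusted p ran from 0.00929, in limma, to 0.398, and 2 of them made the call. Pseudomonas differed by 0.02 ± 0.44, Rhizobiaceae without a genus name by 0.34 ± 0.49, Brevundimonas by 0.16 ± 0.67 and Rodentibacter by 0.62 ± 1.23. On centred log-ratio values, where the median of all genera was -0.06 in place of -1.65, limma called Pseudomonas (2.22, adjusted p = 0.0404) and Rhizobiaceae without a genus name (2.53, adjusted p = 0.0300) higher. DESeq2 also called Rhizobiaceae without a genus name higher (0.82, adjusted p = 0.0390), and the other 19 of its 21 alternatives did not. In shares of reads, the Pseudomonas means were 0.860% ± 0.0424 without ABX (SAH+Tet) and 0.815% ± 0.162 with it.

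Families were tested over all 4 groups by an exact permutation of the F statistic on log2(percent of reads + 0.001), with adjustment over the 93 families tested, of which 24 (25.8%) passed. Of the 11 Proteobacteria families tested, 1 passed, the unnamed family of the Rhodospirillales (adjusted exact permutation p = 0.0237, but 0.0673 with the replicate block, 0.0904 with depth class as a block and 0.125 without a logarithm). Sutterellaceae, here only Parasutterella, had an adjusted exact permutation p of 0.0548. Over its alternatives this p ran from 0.0266 without SAH+Tet+ABX 1 to 0.162 without a logarithm. It was below 0.05 in that first case and with a filter of 50 reads (0.0447), and above it in all others, among them the replicate block (0.0727) and depth class as a block (0.0904). Rhizobiaceae (0.0698), Alcaligenaceae (0.0922) and Enterobacteriaceae (0.130) did not pass in this exact permutation test. Each passed without 1 library: Rhizobiaceae without SAH+Tet+ABX 1 (adjusted exact permutation p = 0.0242), Alcaligenaceae without SAH+Tet 3 (0.0121) and Enterobacteriaceae without SAH 1 (0.0119). Alcaligenaceae also passed with an added constant of 0.0001 (0.0287). The highest values over the alternatives were 0.231, 0.161 and 0.263. Morganellaceae, Moraxellaceae, Pseudomonadaceae, Caulobacteraceae, Comamonadaceae and Pasteurellaceae had adjusted exact permutation p-values between 0.179 and 1.00. Of these, Morganellaceae (adjusted exact permutation p = 0.0235) and Moraxellaceae (0.0323) passed without SAH+Tet 3.

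The remaining members were sparse. Comamonadaceae had 136 reads in 11 libraries. Succinivibrionaceae, anaerobes of the gut and rumen, had 84 reads, with 21 in Sham 1 and 52 in Sham 3. Of the 45 family-level features, 28 had fewer than 20 reads each and 197 together, and 12 were found in 1 library. Only 5 families were found in every library: Pseudomonadaceae, Sutterellaceae, Enterobacteriaceae, Rhizobiaceae and Caulobacteraceae. Of the 209 ASVs, 148 were found in 1 library and 6 in all 12.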

How the data were processed

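The authors deposited counts: unscaled reads per ASV with a lineage, 1 column per library. The submitters' processing notes name fastp and cutadapt, without versions. For the denoiser, the amplified 16S region, its primers and the taxonomy used, the sources name nothing, although these choices determine the number of ASVs and the ranks that carry names. The series table was identical to the per-sample tables for 12 of 12 libraries. The 2 Eukaryota ASVs were left out. ASVs were summed by genus and family, with ASVs lacking a name at that rank summed under their deepest named rank. Shares are percentages of a library's reads.

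Genera were tested with edgeR 4.0.16 in R 4.3.3 (TMM, quasi-likelihood, group as the only term): 9 libraries without ABX for the first 2 comparisons, 12 for the third. DESeq2 1.42.0 and limma 3.58.1 (centred log-ratio of counts + 0.5) were alternatives, with other scalings, filters, blocks and each library left out. The SE of a log2 fold change is its size divided by the square root of F. Scripts were tested on simulated data. The fold of a group with 0 reads was computed against 3 reads per library.

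Members and lists were chosen with earlier results of these data known, among them the even shares of Pseudomonas and the Rhizobiaceae. Named are the genera of the 2 lists with any read, those with a mean share of at least 0.01% in a group, and those called. Hydrogenophaga and Enterobacteriaceae without a genus name were tested but fall outside this rule. Rhodococcus and the lesser ASVs were named after their values were seen. No ASV sequences were used here.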

Additional observations from a re-analysis of the deposited data

How the results depend on the processing

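Members with few reads, such as Rodentibacter and Brevundimonas, cannot show small differences at this depth. Mitochondria were to be left out of the phylum as an alternative, but 0 ASVs carried that label, so this was not run.

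The count of Proteobacteria genera called for SAH against Sham was 0 in edgeR, 2 in DESeq2, 1 with limma on centred log-ratio values and 5 with depth class as a block, and 0 to 1 with 1 library left out. For SAH+Tet against SAH it was 0, 2 in DESeq2, and 0 with any 1 library left out. For SAH+Tet+ABX against SAH+Tet it was 3. There it was 6 in DESeq2, 5 with limma, 1 on the 6 libraries alone, 1 with depth class as a block, and 1 to 5 with 1 library left out. With the replicate block the counts were 0, 0 and 1. Over all genera the counts were 0, 0 and 73 in edgeR, 48, 30 and 105 in DESeq2, and 9, 1 and 74 with limma. They were 29, 0 and 49 with depth class as a block, 0, 0 and 44 with the replicate block and 43 on the 6 libraries for the third comparison. Leaving out 1 library gave 0 to 1, 0 to 1 and 45 to 87. Of the DESeq2 calls for the third comparison 36.2% were higher, and of the limma calls 55.4%, against 24.7% in edgeR. The median of all genera moved by up to 0.27 with library-size scaling.

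The 1 family that passed became 2 with an added constant of 0.0001 percentage points, 2 with a filter of 50 reads, 0 without a logarithm, 0 with the replicate block and 0 with depth class as a block, and 1 to 4 with 1 library left out. The correlation of same-numbered deviations was above 0.1 in 3 of 18 pairs (-0.586 to 0.496). This cannot decide whether replicate numbers pair the libraries, since no reference value was computed. The lowest and highest values are both between SAH and SAH+Tet, whose Corynebacterium-rich libraries carry different replicate numbers.

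The mean share of the phylum with 1 library left out was 1.23% to 1.32% in Sham, 1.34% to 1.61% in SAH, 1.20% to 1.25% in SAH+Tet and 1.37% to 1.64% in SAH+Tet+ABX. Of 605 recomputed log2 fold changes of 33 results, 539 kept direction and side of the threshold, 23 newly passed, 18 no longer passed and 25 turned sign, all 25 in Pseudomonas, the Allorhizobium group, Brevundimonas and Rodentibacter. The causes of these changes were not tested. For SAH against Sham, limma gave -0.32 for Brevundimonas and -0.32 for Rodentibacter, and the Allorhizobium group ranged from -0.34 to 0.15 with 1 library left out. For SAH+Tet against SAH, Pseudomonas (-0.08) was 0.28 with limma, 0.20 with library-size scaling, 0.0052 without a filter and 0.10 with a filter of 50 reads. With 1 library left out it ranged from -0.22 to 0.049, the Allorhizobium group from -0.0011 to 0.50, Brevundimonas from -0.0295 to 0.52 and Rodentibacter from -0.73 to 0.0050. For SAH+Tet+ABX against SAH+Tet, the Allorhizobium group (-0.16) was 0.34 in DESeq2, 2.04 with limma and 0.24 on the 6 libraries. Pseudomonas (0.02) was -0.0777 with library-size scaling, -0.0455 with RLE scaling and -0.0391 with depth class as a block. With 1 library left out the Allorhizobium group ranged from -0.30 to 0.0053, Brevundimonas from -0.26 to 0.33, Pseudomonas from -0.079 to 0.15 and Rodentibacter from -0.015 to 1.31.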
